A study of Rattus norvegicus with 13 samples.

Results

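Among 14790 genes measured by RNA-seq in rat mammary epithelial cells, the 10 genes described here are the core proteins that place, bind and remove N6-methyladenosine (m6A) on RNA. They were taken by symbol, and all 10 were in the table: the writers *Mettl3*, *Mettl14* and *Wtap*, the readers *Ythdf1*, *Ythdf2*, *Ythdf3*, *Ythdc1* and *Ythdc2*, and the erasers *Alkbh5* and *Fto*. RNA came from female Wistar-Furth rats, a strain susceptible to mammary cancer, which at 6 weeks (6 rats) stood inside a window of susceptibility, WOS, and at 10 weeks (7 rats) were outside WOS. Each rat gave 1 library. By the sample labels, abdominal and inguinal glands were minced, digested with collagenase and passed over a filter that holds back ductal fragments. The paper's RNA-seq methods name differential centrifugation in place of the filter, and which step applied was not settled here. Some stroma and immune cells remain among the epithelium. The values are gene counts that the authors scaled by library and rounded, here called normalized counts.

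m6A is a methyl group set on adenosines inside messenger RNA by a nuclear complex, in which METTL3 carries the catalytic site, METTL14 holds the RNA and WTAP anchors the pair. Proteins with a YTH domain bind the mark, and depending on the protein the RNA is spliced, exported, translated or degraded. The demethylases FTO and ALKBH5 can take the mark off again. These data measure the RNA of the genes and not the mark itself.

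The tissue label was checked against marker genes. The luminal list summed to between 36926 and 53464 normalized counts in the rats at 6 weeks (median 47761.5) and to between 50260 and 65050 at 10 weeks (median 58551), with *Cdh1* the most abundant gene. The basal list, led by *Myh11*, summed to between 19012 and 30009 at 6 weeks and between 26868 and 36958 at 10 weeks. No marker gene that was matched was at 0 in every rat. Genes of the fibroblast list were present as well, and their sum differed with age: the 5 genes, led by *Col3a1*, summed to between 105230 and 220582 at 6 weeks (median 184249) and to between 18702 and 54383 at 10 weeks (median 48665). All 6 rats at 6 weeks lay above every rat at 10 weeks. Most of this sum came from the collagen genes *Col3a1* and *Col1a1*, which were called along with *Lum*, while *Pdgfra* (limma adjusted p = 0.780) and *Dcn* (limma adjusted p = 0.197) were not.

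Of all 14790 genes, 16.1% were called by limma at an adjusted p under 0.05, 7.39% as lower and 8.71% as higher at 6 weeks. A log2 fold change below 0 was found for 47.5%, and the counts of each list stand beside these shares. In this fit 3 of the 5 fibroblast genes were higher at 6 weeks. Of 8 luminal genes, *Epcam* and *Cdh1* were lower and 6 were not called, and the median of that list was -0.13. Of 8 basal genes *Cnn1* alone was called, as lower, while 5 had a log2 fold change above 0, and the median of the list was 0.15. Among mast cell genes, 5 of 6 were higher and *Kit*, the most abundant of them, was lower. *Adipoq* and *Plin1*, of 5 adipocyte genes, were higher, while *Fabp4* led that list. The lists for lymphocytes (led by *Ptprc*), macrophages (*Lyz2*), endothelial cells (*Vwf*) and skeletal muscle (*Acta1*) had 0 genes past the threshold, with 1 macrophage and 1 endothelial gene at an unadjusted p under 0.05. Of the genes listed, only 3 for lymphocytes and 1 for muscle were matched, and the adipocyte, endothelial and fibroblast lists were not matched in full either. Of 10 proliferation genes, 9 were higher at 6 weeks, among them *Mki67*, the most abundant, and the sum of all 10 lay between 2695 and 5621 at 6 weeks and between 355 and 1469 at 10 weeks. In bulk RNA, fewer cells of a type and less RNA per cell cannot be told apart, and the part of cell makeup or proliferation in the differences given here was not tested.

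Some libraries stood apart. Once age means were subtracted, 28.3% of what variation was left lay on one principal component, along which 5 rats (75 and 80 at 6 weeks, 78, 81 and 83 at 10 weeks) were separated from 8 others. They are called the smaller and the larger set, and no label names them. Rats 80 and 78 also had the most genes at 0, 463 and 434, where the other 11 had between 73 and 218. Some whole numbers from 1 to 30 never occurred in 7 libraries: 16 were missing in rat 78, 15 in rat 80, 10 in rat 75, 8 in rat 74, 7 in rat 81 and 4 each in rats 72 and 87.

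Of the 10 genes, *Ythdf2* fell within WOS, and the other 9 did not pass the threshold (limma, adjusted p under 0.05 over 14790 genes). Over all genes 16.1% were called, with 7.39% lower and 8.71% higher at 6 weeks, so 1 of 10 is not above the background. For 9 of the 10 genes the log2 fold change (6 weeks minus 10 weeks) was below 0, with a median of -0.21, against 47.5% of all genes and a median of 0.03. The count below 0 was 7 under both kinds of library size scaling, where *Ythdf1* and *Alkbh5* turned above 0. The ages overlapped for all 10 genes, while 6.07% of all genes had no overlap.

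**Figure D1:**
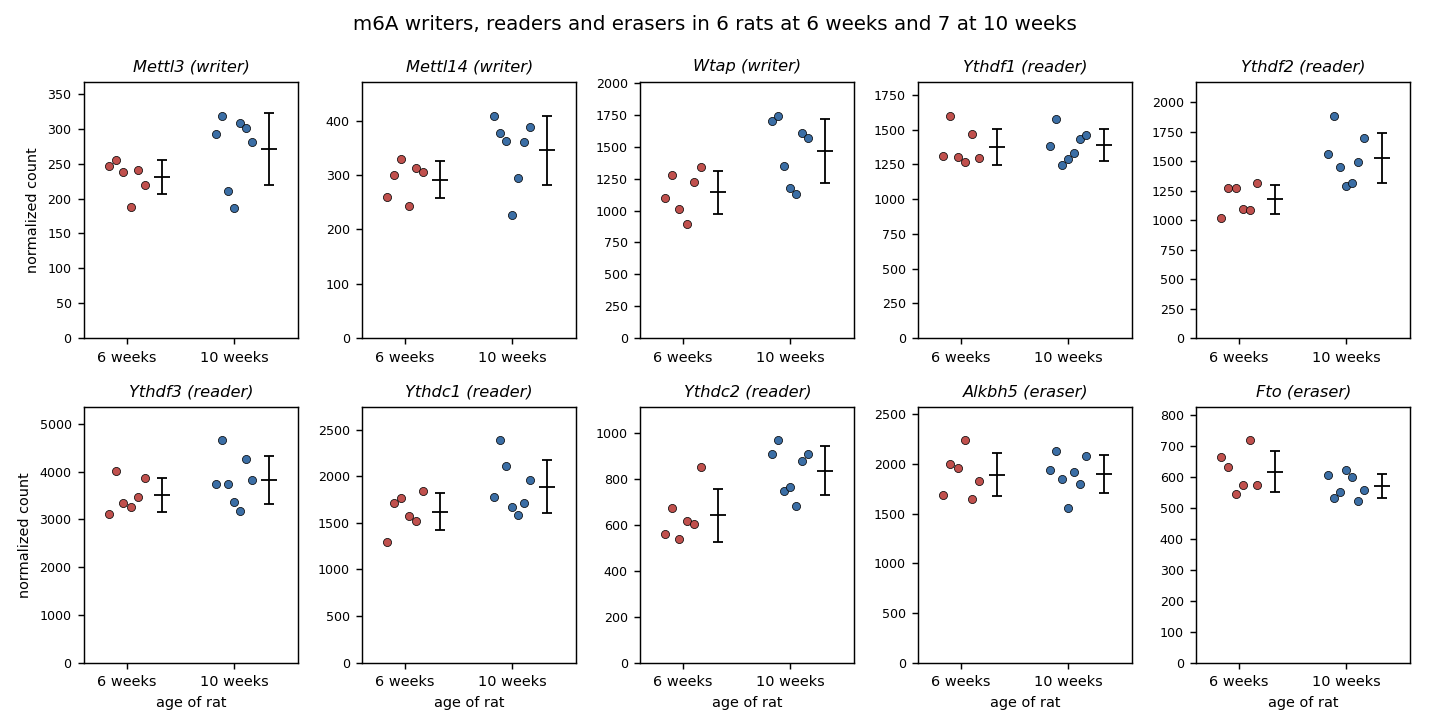
Normalized count (vertical axes, from 0) of each m6A gene in every rat, by age (horizontal axes). Each point is a rat, 6 at 6 weeks (red) and 7 at 10 weeks (blue), and the bars give the mean and SD; for *Ythdf2*, 5 of the 6 rats at 6 weeks lie below every rat at 10 weeks.

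Among the writers, *Mettl3*, the catalytic subunit, had normalized counts of 188 to 256 in the rats at 6 weeks (median 239.5) and of 186 to 319 at 10 weeks (median 293). At 10 weeks 5 of 7 rats lay above every rat at 6 weeks, but rat 78 lay within the younger range and rat 81 just below it. The log2 fold change was -0.21 (95% interval -0.52 to 0.10, limma adjusted p = 0.337).

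*Mettl14*, the RNA-binding partner of *Mettl3*, ran from 242 to 330 at 6 weeks (median 302) and from 226 to 409 at 10 weeks (median 363). Here too 5 of 7 rats at 10 weeks exceeded all rats at 6 weeks, and rat 81 was the lowest of all 13. The log2 fold change was -0.23 (95% interval -0.54 to 0.08, limma adjusted p = 0.296). In the 8 rats of the larger set it was -0.39, past the threshold (adjusted p = 0.0362), and in the 5 of the smaller set -0.034 (adjusted p = 0.966). With sample quality weights, estimated from these values, it was called too (adjusted p = 0.0225), and over 26 alternatives the adjusted p ran from there to 0.966.

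*Wtap*, which holds the catalytic pair in nuclear speckles, ran from 898 to 1345 at 6 weeks (median 1161) and from 1126 to 1744 at 10 weeks (median 1567). All 6 rats at 6 weeks lay below the median at 10 weeks, and 3 lay below every rat at 10 weeks. Its log2 fold change of -0.36 (SE 0.14, 95% interval -0.66 to -0.05) had an unadjusted p of 0.0250 and missed the threshold after adjustment over all genes (limma adjusted p = 0.102). The larger set alone gave -0.42, past the threshold (adjusted p = 0.0276), and the smaller set -0.35 (adjusted p = 0.454). With the set, itself drawn from these values, as a term for all 13 rats *Wtap* was called (-0.40, adjusted p = 0.00670), as it was with sample quality weights (adjusted p = 0.0130). These 3 were its only calls in 26 alternatives, over which the adjusted p ran from 0.00670 to 0.454.

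The readers of the cytoplasm are *Ythdf1*, *Ythdf2* and *Ythdf3*, paralogues whose products bind the mark through the same domain. *Ythdf2*, best known for bringing methylated RNA to the CCR4-NOT deadenylase for decay, had normalized counts of 1022, 1276, 1269, 1092, 1084 and 1311 in rats 70, 71, 75, 80, 84 and 86 at 6 weeks. The counts were 1561, 1886, 1452, 1288, 1318, 1495 and 1700 in rats 72, 74, 78, 81, 83, 85 and 87 at 10 weeks. Rat 86 alone reached into the range of the older rats, where it stood above rat 81 and below the rest.

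The mean of *Ythdf2* was 1176 ± 123 (SD, n = 6) at 6 weeks and 1529 ± 211 (SD, n = 7) at 10 weeks, a log2 fold change of -0.37 (SE 0.11, 95% interval -0.62 to -0.13, limma adjusted p = 0.0423). The call lies close to the threshold, and some other scalings or choices of rats end it. Median-ratio and upper quartile scaling, 2 of the 4 others, kept it (limma adjusted p = 0.0370 and 0.0462). Scaling by library size gave -0.33 (adjusted p = 0.0647), and -0.28 (adjusted p = 0.128) when the most abundant gene was left out of that size. Leaving out rat 70, 71, 80 or 84 at 6 weeks gave an adjusted p of 0.0973, 0.0561, 0.0698 or 0.0909, and leaving out rat 72, 74, 78, 85 or 87 at 10 weeks gave 0.0777, 0.0784, 0.0588, 0.0571 or 0.0863. The larger set alone gave -0.50 (adjusted p = 0.0305) and the smaller set alone -0.20 (adjusted p = 0.621). Without rats 78 and 80, a choice made after seeing the data, it was -0.36 (adjusted p = 0.0893). At 6 weeks, where *Ythdf2* was lower, the fibroblast and proliferation sums were higher. The luminal genes *Cdh1* and *Epcam*, 2 of 8, were lower, beside 7.39% of all genes called as lower. The basal list was mixed, with *Cnn1*, 1 of 8, lower and 5 of 8 genes above 0. The part of these in the result was not tested.

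*Ythdf1*, linked to translation of methylated RNA, ran from 1270 to 1600 at 6 weeks (median 1305.5) and from 1247 to 1577 at 10 weeks (median 1384). The ages covered almost the same range, with a log2 fold change of -0.015 (95% interval -0.22 to 0.19, limma adjusted p = 0.927). *Ythdf3*, which acts along with both paralogues, ran from 3110 to 4017 at 6 weeks (median 3409.5) and from 3180 to 4655 at 10 weeks (median 3739). Its log2 fold change was -0.12 (95% interval -0.36 to 0.12, limma adjusted p = 0.493), and only rats 74 and 85 at 10 weeks stood above all younger rats.

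In the nucleus *Ythdc1* directs splicing and export of methylated RNA. It ran from 1299 to 1846 at 6 weeks (median 1647) and from 1581 to 2386 at 10 weeks (median 1779), with a log2 fold change of -0.22 (95% interval -0.48 to 0.05, limma adjusted p = 0.246). Rats 70, 80 and 84 at 6 weeks lay below every older rat, and the others lay within the older range.

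*Ythdc2*, a reader with an RNA helicase domain known from germ cells entering meiosis, had normalized counts of 560, 674, 540, 616, 605 and 854 in rats 70, 71, 75, 80, 84 and 86 at 6 weeks. At 10 weeks it had 910, 969, 748, 766, 681, 877 and 908 in rats 72, 74, 78, 81, 83, 85 and 87. Rat 86 again stood within the older range, and the other 5 younger rats lay below all older ones. The means were 642 ± 114 (SD, n = 6) and 837 ± 105 (SD, n = 7).

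The log2 fold change of *Ythdc2*, -0.39 (SE 0.13, 95% interval -0.67 to -0.11), was as large as that of *Ythdf2* but missed the threshold (limma, unadjusted p = 0.00938, adjusted p = 0.0552). It was called in 7 of 26 alternatives, among them median-ratio scaling (adjusted p = 0.0478), a minimum of 10 in every rat (0.0470), limma-trend (0.0357), the rat set as a term (0.0150) and sample quality weights (0.00405). The rat set was drawn from these values and the weights were estimated from them. Over all genes, the fits with the set as a term and with the weights called 3334 and 5647 of 14790. For *Ythdc2* the highest adjusted p, 0.442, came from the smaller set alone. Without rat 86 or rat 83 the adjusted p was 0.0189 or 0.0409, and without any of the other 11 rats it missed the threshold, with an adjusted p of up to 0.121, without rat 70. Both genes thus sit near the threshold, on either side of it, and a difference between them was not tested.

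Neither eraser passed the threshold. *Alkbh5*, a nuclear demethylase, ran from 1647 to 2239 at 6 weeks (median 1891.5) and from 1555 to 2132 at 10 weeks (median 1923), with a log2 fold change of -0.0036 (95% interval -0.23 to 0.23, limma adjusted p = 0.984). *Fto*, which also acts on the cap-adjacent methylated adenosine, ran from 544 to 719 at 6 weeks (median 603.5) and from 522 to 624 at 10 weeks (median 558), with a log2 fold change of 0.11 (95% interval -0.09 to 0.32, limma adjusted p = 0.451). The ranges at the 2 ages overlapped for both, and rats 70, 71 and 84 had more *Fto* than any older rat.

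A ratio of 2 genes in one library does not depend on how that library was scaled, so 4 pairs were compared as log2 ratios by an exact permutation test over the 1716 regroupings of the rats (two-sided, smallest possible p = 0.00117). *Ythdf2* over *Ythdf1* ran from -0.44 to 0.017 at 6 weeks (median -0.27) and from -0.014 to 0.26 at 10 weeks (median 0.17). The ratio fell within WOS by 0.36 on the log2 scale (exact permutation p = 0.00350, adjusted over the 4 pairs 0.0140). In 5 of 6 younger rats it lay below every older rat, and rat 86 was the exception. With single rats left out, the exact permutation p lay between 0.00253 and 0.00758. Without rats 78 and 80, a choice made after seeing the data, the difference was -0.35 (exact permutation p = 0.0130). These p-values are not adjusted over the pairs. In the larger set the difference was -0.45 (exact permutation p = 0.0286, the smallest that 4 rats against 4 allow). In the smaller set it was -0.20 (exact permutation p = 0.200, the smallest that 2 rats against 3 allow). Neither p is adjusted over the pairs.

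The other 3 pairs did not pass. *Mettl14* over *Mettl3*, partner over catalytic subunit, differed by -0.018 (exact permutation p = 0.890), *Fto* over *Alkbh5* by 0.11 (exact permutation p = 0.431) and *Ythdc2* over *Ythdc1* by -0.17 (exact permutation p = 0.138). For *Fto* over *Alkbh5* the rat sets went opposite ways, with 0.37 in the larger set (exact permutation p = 0.0286) and -0.33 in the smaller (exact permutation p = 0.200). Each p is the smallest that its set allows, and neither is adjusted over the pairs. Single rats moved *Ythdc2* over *Ythdc1* either way, to -0.10 without rat 75 (exact permutation p = 0.298) and to -0.23 without rat 78 (exact permutation p = 0.0281, not adjusted over the pairs).

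**Figure D2:**
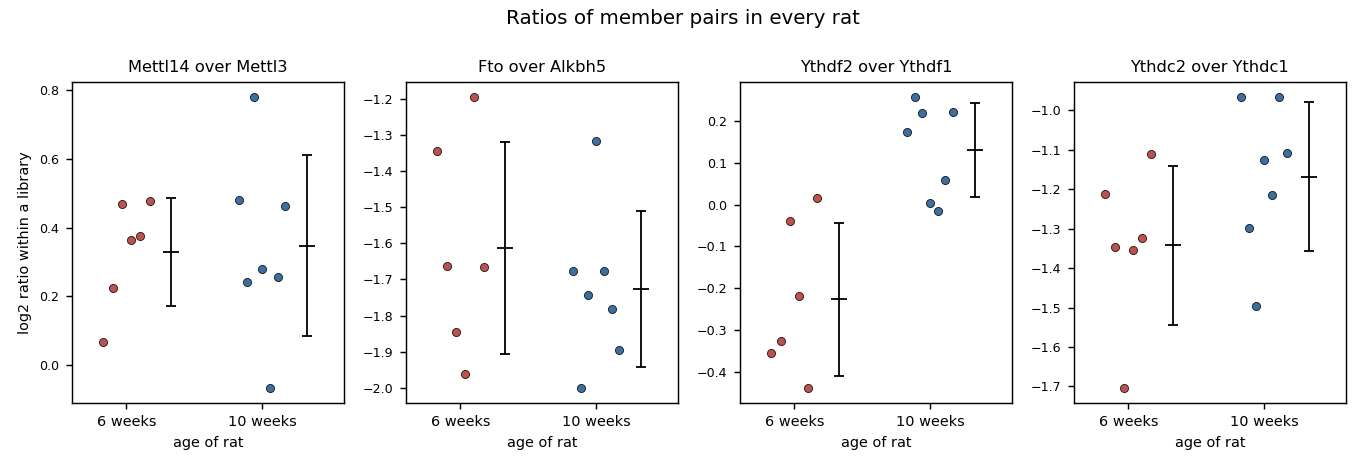
Log2 ratio of each pair of genes within a library (vertical axes, which differ between panels) by age (horizontal axes). Points are the 6 rats at 6 weeks (red) and the 7 at 10 weeks (blue), and bars give mean and SD; *Ythdf2* over *Ythdf1* is lower at 6 weeks in 5 of 6 rats than in any rat at 10 weeks.

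Other genes of the pathway were described by list. Of 11 further writer genes, 3 fell within WOS and 0 rose, with a median log2 fold change of -0.14, where 7.39% of all genes fell and 8.71% rose. *Rbm15*, which guides the complex to its RNA, ran from 934 to 1137 at 6 weeks and from 1092 to 1307 at 10 weeks (log2 fold change -0.30, SE 0.09, limma adjusted p = 0.0369). *Cbll1*, a subunit also called Hakai, ran from 399 to 587 and from 495 to 777 (log2 fold change -0.43, SE 0.14, limma adjusted p = 0.0458). *Mettl16*, a separate enzyme that methylates U6 RNA and the transcript of *Mat2a*, ran from 343 to 444 and from 435 to 621 (log2 fold change -0.41, SE 0.10, limma adjusted p = 0.0206). The ages overlapped for all 3 genes. Scaling by library size left 1 of these calls, and the same scaling without the most abundant gene left 0, as did leaving out rats 78 and 80. Of 26 alternatives in all, *Rbm15* was called in 11, *Cbll1* in 12 and *Mettl16* in 23.

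The supply of the methyl donor, S-adenosylmethionine, had 3 of its 4 genes past the threshold, beside 16.1% of all genes. *Mat2a*, the synthetase of most tissues outside the liver, ran from 4519 to 7084 normalized counts at 6 weeks (median 6358) and from 8028 to 12727 at 10 weeks (median 10208). All 6 younger rats lay below all older ones, and the gene fell by 0.84 on the log2 scale (SE 0.15, limma adjusted p = 0.00245). *Mat1a*, the synthetase typical of liver, was low at both ages, at 24 to 56 and 10 to 19, and rose within WOS without overlap (log2 fold change 1.51, SE 0.20, limma adjusted p = 0.000490).

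*Mat2b*, the regulatory subunit of the *Mat2a* enzyme, rose as well, from a range of 299 to 486 at 10 weeks to 471 to 651 at 6 weeks (log2 fold change 0.57, SE 0.14, limma adjusted p = 0.0184). The catalytic and the regulatory gene of the same enzyme thus moved in opposite directions. *Ahcy*, which clears the product of methylation, did not pass, at 0.44 (limma adjusted p = 0.0688), but did under library size scaling without the most abundant gene (adjusted p = 0.0303). The calls of *Mat2a*, *Mat1a* and *Mat2b* held under all 4 other scalings and without rats 78 and 80.

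Of 11 readers without a YTH domain, 2 rose and 0 fell, where 8.71% of all genes rose and 7.39% fell. The log2 fold change was below 0 for 8 of the 11, with a median of -0.14, against 47.5% of all genes and a median of 0.03. *Igf2bp1*, which stabilizes bound RNA, ran from 10 to 28 at 6 weeks and from 3 to 8 at 10 weeks, without overlap (log2 fold change 1.51, SE 0.27, limma adjusted p = 0.00297). These are low values, for which log2(normalized count + 1) understates the change. Its relative *Igf2bp2* ran from 199 to 330 and from 132 to 231 (log2 fold change 0.54, SE 0.16, limma adjusted p = 0.0354), and without rats 78 and 80 its adjusted p was 0.0927. It was called in 16 of 26 alternatives.

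Of 18 genes for partners of the readers and RNA decay, 3 fell and 0 rose, where 7.39% of all genes fell and 8.71% rose. *Srsf10*, a splicing factor that binds YTHDC1, ran from 326 to 594 at 6 weeks and from 667 to 1014 at 10 weeks, with no overlap (log2 fold change -0.78, SE 0.16, limma adjusted p = 0.00583). *Srsf3*, another splicing partner of YTHDC1, ran from 2609 to 3295 and from 3259 to 4988 (log2 fold change -0.48, SE 0.11, limma adjusted p = 0.0144). *Cnot4*, a ubiquitin ligase of the CCR4-NOT complex, fell by 0.43 on the log2 scale (limma adjusted p = 0.0440), with a call that 1 of 4 other scalings and 12 of all 26 alternatives kept.

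Among 6 other AlkB genes 1 was called, a share near the 16.1% of all genes: *Alkbh1*, a demethylase of transfer RNA, was lower within WOS. It ran from 837 to 923 at 6 weeks and from 1044 to 1469 at 10 weeks, and every younger rat was below every older one (log2 fold change -0.44, SE 0.09, limma adjusted p = 0.00876).

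**Figure D3:**
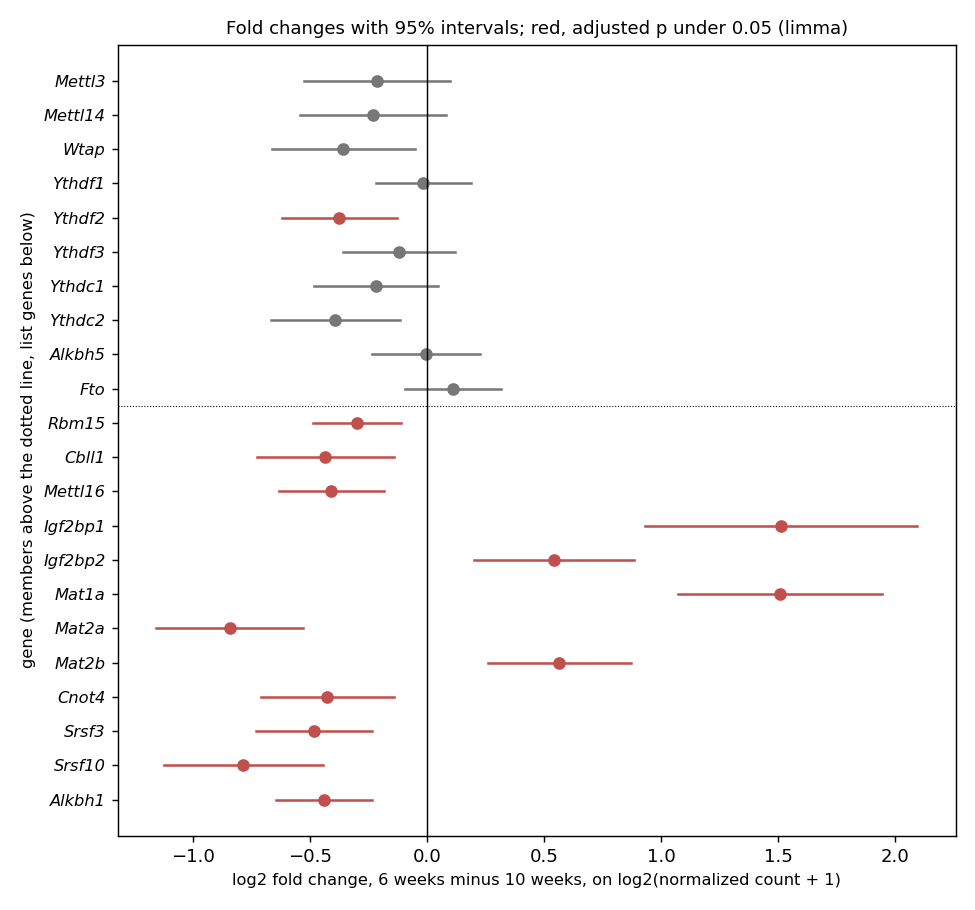
Log2 fold change, 6 weeks minus 10 weeks (horizontal axis, on log2(normalized count + 1)), of the 10 m6A genes and the 12 called genes of the other lists, 1 gene per row of the vertical axis. Points are limma estimates and lines their 95% intervals, with red for an adjusted p under 0.05; the widest difference below 0 is that of *Mat2a*, at -0.84.

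*Mettl3* lies between *Tox4* and *Sall2* in the RefSeq annotation of rat (GRCr8), and the study names these genes with *Supt16h* and *Chd8* in one block of changing chromatin contacts. With limma 0 of these 5 genes were called, beside 16.1% of all genes, and 1, *Sall2*, had an unadjusted p under 0.05. *Sall2* ran from 36 to 55 at 6 weeks and from 28 to 42 at 10 weeks (log2 fold change 0.35, limma adjusted p = 0.0863), opposite in sign to its neighbour. *Tox4*, *Chd8* and *Supt16h* had log2 fold changes of -0.05, -0.11 and -0.12. Other measured genes lie nearby in the annotation, and the study does not name them in the block. Of these, *Rpgrip1*, next to *Supt16h*, was called as lower at 6 weeks (log2 fold change -0.83, limma adjusted p = 0.0380). *Rab2b* and *Hnrnpc* were not called (limma adjusted p = 0.882 and 0.603).

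The genes most like *Ythdf2* across the 13 rats, among 8767 with a mean of at least 100, were *Cdk12*, a kinase of the RNA polymerase II tail (Pearson r = 0.986), *Rps6kb1*, a kinase of ribosomal protein S6 (r = 0.980), and *Rasa1*, a GTPase-activating protein for Ras (r = 0.979). The rats share their age groups and libraries in this measure, so it is only a description. *Rps6kb1* and *Rasa1* fell within WOS (limma adjusted p = 0.0269 and 0.0236), and *Cdk12* had a log2 fold change of -0.30 (limma adjusted p = 0.0604).

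RefSeq promoters were matched for 8 of the 10 genes. The 250 bases before the start of *Ythdf2* and of *Ythdf1* are printed because the ratio of these paralogues differed with age, and those of *Ythdc2* because it had the next lowest p of the 10 genes. Positions are in GRCr8: *Ythdf2* at chr5:149690059-149690308 on the minus strand, *Ythdf1* at chr3:188417741-188417990 on the minus strand and *Ythdc2* at chr18:37517036-37517285 on the plus strand. Capitals mark any match, on either strand, to the GC box GGGCGG, the CCAAT box CCAAT, the ETS core CCGGAA or the cAMP response element TGACGTCA.
Ythdf2: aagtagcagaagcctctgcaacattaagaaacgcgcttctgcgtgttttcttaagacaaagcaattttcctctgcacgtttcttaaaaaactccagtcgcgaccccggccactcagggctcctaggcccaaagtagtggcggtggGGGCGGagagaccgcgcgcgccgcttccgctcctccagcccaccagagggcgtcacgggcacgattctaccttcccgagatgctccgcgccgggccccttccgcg
Ythdf1: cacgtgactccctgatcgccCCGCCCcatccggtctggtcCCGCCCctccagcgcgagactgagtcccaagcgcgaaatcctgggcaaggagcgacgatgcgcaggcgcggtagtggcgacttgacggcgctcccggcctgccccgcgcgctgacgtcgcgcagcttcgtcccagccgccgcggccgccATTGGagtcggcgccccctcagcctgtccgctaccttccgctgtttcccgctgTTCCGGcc
Ythdc2: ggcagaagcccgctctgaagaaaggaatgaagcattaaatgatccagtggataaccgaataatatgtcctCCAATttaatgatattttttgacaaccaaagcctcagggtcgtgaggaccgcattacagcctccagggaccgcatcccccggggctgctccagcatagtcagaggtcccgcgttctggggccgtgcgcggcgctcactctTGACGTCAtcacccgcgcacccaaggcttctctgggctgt
The *Ythdf2* stretch (60.4% GC) holds 1 GC box, and that of *Ythdf1* (72% GC) holds 2 GC boxes, 1 CCAAT box and 1 ETS core. The *Ythdc2* stretch (55.2% GC) holds 1 CCAAT box and a cAMP response element 40 bases before the start, and *Mettl14* has the latter too, 50 bases before its start. Of 33469 rat promoters of this length, 30.5% hold a GC box, 34.0% a CCAAT box, 12.6% an ETS core and 1.59% a cAMP response element. A match describes letters and is not evidence of a bound factor.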

How the data were processed

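RNA-seq libraries of 13 rats, 6 at 6 weeks and 7 at 10 weeks, were grouped by their titles. The authors estimated counts with RSEM 1.2.22, scaled each library and deposited rounded values for 14790 genes, whose unit is taken as a score because they are no longer raw counts. The submitters' processing notes name rn5, edgeR and DESeq2, and the annotation is not given in the sources used here. The authors' deposited comparison (fold changes and mean abundance on the log2 scale, a likelihood ratio score, p-values with false discovery rates, and words on status and cell compartment) was not used. Totals of the deposited values ran from 13261906 to 15659533, so depth before scaling is not shown by them.

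The ages were compared on log2(normalized count + 1) by limma 3.58.1 (R 4.3.3), keeping genes whose mean reached 1, as all 14790 did, with two-sided p-values adjusted after Benjamini-Hochberg over all genes and a threshold of 0.05. The model was tested on simulated data. A p that misses the threshold does not show that a gene did not differ, so 95% intervals are given for the members. Ratios were tested by exact permutation in Python 3.11.15 (scipy 1.17.1, numpy 2.4.6, pandas 2.3.3). Its two-sided p is 2 times the smaller tail. An exact permutation p that counts absolute differences instead, which was also run, was 0.00175 for *Ythdf2* over *Ythdf1* and 0.135 or more for the other 3 pairs. Levels of the 10 members were not compared with each other, since transcript lengths were not used here, and the most abundant gene of a marker list is the one with the highest mean normalized count, not adjusted for length.

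Members and lists were chosen with earlier results of these data known. The text names all 10 members, every called gene of the pathway lists, or the lowest p of a pathway list without a call, the 3 genes most correlated with a called member, the genes beside *Mettl3* or named with it by the study, and the most abundant gene of each marker list. *Ahcy*, *Epcam*, *Cnn1*, *Adipoq*, *Plin1*, *Col1a1*, *Lum*, *Pdgfra*, *Dcn*, *Mki67*, *Rpgrip1*, *Rab2b* and *Hnrnpc* were named after their values were seen. Alternatives were 4 other scalings, 0.1 as the pseudocount, no filter or at least 10 in every rat, limma-trend, sample quality weights, the rat set as a term, each set alone, each rat left out and, chosen after seeing the data, rats 78 and 80 left out.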

Additional observations from a re-analysis of the deposited data

Results flagged for a closer look

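Of 60 groups checked, each a named gene or ratio at one age, 1 had a rat far from the others. In *Rbm15* at 6 weeks, rat 71 had 1137 normalized counts, while the next highest rat had 994 and the lowest 934. Chance flags about 1 in 20 groups.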

How the results depend on the processing

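The number of called members, 1 of 10, was 2 under median-ratio scaling, a minimum of 10 in every rat and limma-trend (2377 of 14790, 2291 of 12021 and 2608 of 14790 genes called), 3 in the larger set of rats and with the rat set as a term (3469 of 14774 and 3334 of 14790 genes), and 4 with sample quality weights (5647 of 14790). It was 0 under library size scaling with and without the most abundant gene (2069 and 2263 of 14790 genes) and in the smaller set (0 of 14770). Without rats 78 and 80 (chosen after seeing the data) it was 0 too (1846 of 14787 genes), and with each rat left out 0 to 2. The count over all genes, 2381, was 5647 with sample quality weights and 0 in the smaller set (limma, 1976 genes at an unadjusted p under 0.05). With each rat left out it ran from 1411 to 2680, the lowest without rat 70, with 1488 without rat 84 and 1558 without rat 87. The split of 1288 higher and 1093 lower at 6 weeks became 1671 and 592 under library size scaling without the most abundant gene. *Ythdf2* kept its sign in all 26 alternatives and its call in 13, with adjusted p from 0.00445 to 0.621. The fit with no filter repeats the main fit, as all 14790 genes passed the filter, so in each tally of 26 it could not differ. The log2 fold change of *Ythdf2* with each rat left out ran from -0.41 to -0.32.

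*Ythdf1* turned to 0.032 and 0.074 under library size scaling with and without the most abundant gene and to 0.036 with sample quality weights, and ran from -0.060 to 0.016 with each rat left out. *Alkbh5* turned to 0.044 and 0.086 under those scalings and to 0.24 in the smaller set, and ran from -0.053 to 0.035. *Fto* was -0.083 in the smaller set. The difference of *Mettl14* over *Mettl3* was 0.085 in the smaller set and 0.047 without rats 78 and 80, and ran from -0.087 to 0.054 with each rat left out. *Fto* over *Alkbh5* was 0.37 in the larger set and -0.33 in the smaller, and ran from 0.031 to 0.18. *Ythdf2* over *Ythdf1* was -0.20 in the smaller set, and ran from -0.41 to -0.32. *Ythdc2* over *Ythdc1* ran from -0.23 to -0.10. The cause of these shifts was not tested, and the sets also hold fewer rats. The ages share no rat number, so no paired analysis was possible because no rat was sampled at both ages. Depth before scaling was not estimated here, which limits low genes such as *Igf2bp1* and *Mat1a*, and the part of the whole numbers missing from 7 libraries was not tested.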
